A study of Homo sapiens with 5 samples.

Results

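The 6 genes TM4SF1, TM4SF4, TM4SF18, TM4SF19, TM4SF20 and TM4SF5, all of the TM4SF family of membrane proteins, were described in single nuclei of 5 mixed lung cancer cell lines, out of 36601 genes in the count matrix. They were selected on their RNA levels in the 80% portion, where members of the family stood out among groups of nuclei, so those levels are a description and carry no test. For the 4 members on chromosome 3, the 58 of 158342 chromatin peaks within 50 kb of their annotated starts were examined as well. All 6 genes had at least 100 UMIs (unique molecular identifiers, one for each RNA molecule read), with totals from 229 for TM4SF5 to 61203 for TM4SF1.

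The proteins of this family cross the membrane repeatedly and resemble tetraspanins in shape, but form a family of their own. TM4SF1 is a surface antigen of many carcinomas and of endothelial cells, and TM4SF4 and TM4SF5 are best known from liver and gut, where they have been linked to growth control. TM4SF20 is known for holding back the cleavage of a membrane-bound transcription factor, TM4SF19 is known from osteoclasts, and TM4SF18 is a little-studied neighbour of TM4SF1.

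The lines H2228, H1975, A549, H838 and HCC827, all human lung adenocarcinomas, were grown apart without treatment, frozen, mixed and taken to nuclei. RNA and open chromatin (ATAC) of each nucleus were read under one barcode, and the droplets were divided into an 80% and a 20% portion with 1 RNA and 1 ATAC library each. There were no replicate cultures or libraries, so no difference was tested, and all intervals given are exact 95% intervals that cover counting error only. No line was assigned to a group of nuclei, each line is a single culture, and the RNA of nuclei can differ from that of whole cells.

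The 80% portion held 6557 barcodes with a median of 13306 UMIs and 8784 ATAC counts, and the 20% portion held 1286 with 10540.5 and 9156.5. Both portions together held 7843 barcodes, where the labels name 16000 nuclei as captured and 9700 as the total. Nuclei of the 80% portion were clustered on their RNA with the 6 genes left out, which gave 5 clusters of 2392, 1540, 1452, 843 and 330 nuclei, numbered 0 to 4. The genes with the largest excess in these clusters were MALAT1, ALDH1A1, LDHB, ACTB and EGFR in that order. A finer setting divided most of cluster 3 into groups of 444 and 376 nuclei, here called 3a and 3b, which differed in marker levels. EPCAM, an epithelial adhesion gene, had 716 CPM in 3a and 65.9 in 3b, and VIM, the mesenchymal vimentin gene, 1627 and 4458. The other epithelial markers were divided. CDH1 (203 and 18.2 CPM) and KRT19 (1412 and 906) were higher in 3a, but KRT8 (900 and 1296) and KRT18 (1515 and 1724) in 3b. Levels given for cluster 3 are averages over these groups, no line was assigned to them, and whether cluster 3 holds more than 1 line was not tested. Median UMIs ran from 9290 in cluster 1 to 15916 in cluster 3, and doublets called by Scrublet made up 385 nuclei, of which 145 were in cluster 1, 96 in cluster 3 and 9 in cluster 2. The keratins KRT8, KRT18 and KRT19, which mark epithelial cells, were found in every cluster, and the 5 epithelial markers summed to 1373 to 8703 CPM (counts per 1000000 UMIs of a cluster). EPCAM and CDH1, also among the 5, were far less even. They were lowest in cluster 2, at 23.8 and 4.86 CPM, and highest in cluster 4, at 753 and 199 CPM. The 4 mesenchymal markers, led by VIM, summed to 968 to 4396 CPM. The 5 immune markers summed to 0.830 to 10.7 CPM, nearly all of it CD14, with PTPRC at 0 in clusters 1 and 4. The 3 endothelial markers summed to 1.66 to 9.37 CPM. The 4 fibroblast markers summed to 22.6 to 249 CPM, mostly through COL1A1, with DCN at 0 in clusters 1, 3 and 4. COL1A2, also among the 4, had 32.0 CPM in cluster 3 and at most 1.26 elsewhere, with 7.83 in 3a and 67.0 in 3b. In all, 159 barcodes were called in both portions, 2.42% of the 80% and 12.4% of the 20% barcodes.

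TM4SF18, TM4SF1 and TM4SF4 lie side by side on the long arm of chromosome 3. In GENCODE v44 on hg38, TM4SF18 (ENSG00000163762) spans 149318498 to 149334414 on the minus strand, TM4SF1 (ENSG00000169908) 149369022 to 149377692 on the minus strand, and TM4SF4 (ENSG00000169903) 149474697 to 149503394 on the plus strand. The starts of TM4SF18 and TM4SF1 are 43278 bp apart, so their windows share peaks, and those of TM4SF1 and TM4SF4 are 97005 bp apart. TM4SF19 (ENSG00000145107) is on the minus strand of the same chromosome from 196319342 to 196338503. TM4SF20 (ENSG00000168955) is on the minus strand of chromosome 2 from 227362038 to 227381995, and TM4SF5 (ENSG00000142484) on the plus strand of chromosome 17 from 4771884 to 4783213. The sources do not say whether counting used the strand. It is thus not known whether reads of TM4SF18 and TM4SF19 were kept apart from those of their overlapping antisense genes.

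The sequences that the results below return to are the middle 300 bases of 3 peaks, and the RefSeq promoter of TM4SF4, which runs from 250 bases before its start to 50 after. The first is the peak 405 bp upstream of the TM4SF4 start, and the promoter follows it downstream. The peak over the TM4SF1 start is shown for contrast, since it was open in all clusters. The last is a peak whose accessibility was concentrated in 1 cluster. Capitals mark matches to the motifs named after the sequences.
TM4SF4 start peak, hg38 chr3:149473699-149473998, plus strand: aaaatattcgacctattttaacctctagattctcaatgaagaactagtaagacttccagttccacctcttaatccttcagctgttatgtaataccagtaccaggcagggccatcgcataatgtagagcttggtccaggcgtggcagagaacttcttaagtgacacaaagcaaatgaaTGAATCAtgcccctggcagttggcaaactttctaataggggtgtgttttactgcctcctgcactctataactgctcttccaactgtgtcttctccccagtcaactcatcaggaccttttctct
TM4SF4 promoter, GRCh38.p14 chr3:149474447-149474746, plus strand: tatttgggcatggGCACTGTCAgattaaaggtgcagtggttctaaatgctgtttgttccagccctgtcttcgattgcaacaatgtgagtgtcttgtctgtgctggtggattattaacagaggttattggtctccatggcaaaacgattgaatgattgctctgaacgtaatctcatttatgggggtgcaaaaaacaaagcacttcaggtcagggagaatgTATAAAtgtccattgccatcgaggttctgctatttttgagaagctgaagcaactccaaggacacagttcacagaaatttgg
TM4SF1 start peak, hg38 chr3:149377584-149377883, plus strand: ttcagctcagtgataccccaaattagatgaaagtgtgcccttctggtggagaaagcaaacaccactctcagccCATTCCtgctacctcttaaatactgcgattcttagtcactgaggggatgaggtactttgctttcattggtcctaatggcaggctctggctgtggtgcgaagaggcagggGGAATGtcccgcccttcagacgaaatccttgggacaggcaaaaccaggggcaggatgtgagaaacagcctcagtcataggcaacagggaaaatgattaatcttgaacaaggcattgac
Peak in an exon of TM4SF1-AS1, hg38 chr3:149384997-149385296, plus strand: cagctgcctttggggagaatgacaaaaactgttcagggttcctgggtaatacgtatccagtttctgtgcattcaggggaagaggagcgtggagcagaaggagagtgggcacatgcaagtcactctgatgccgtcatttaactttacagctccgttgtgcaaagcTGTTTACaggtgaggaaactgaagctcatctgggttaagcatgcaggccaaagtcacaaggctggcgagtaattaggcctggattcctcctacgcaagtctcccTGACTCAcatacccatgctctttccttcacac

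Each motif was searched on both strands. AP-1 (TGANTCA) occurred at bases 178 to 184 of the TM4SF4 start peak and 269 to 275 of the TM4SF1-AS1 peak, and in 33.8% of all peaks over windows of the same length. The forkhead motif (TGTTTAC) occurred at bases 165 to 171 of the TM4SF1-AS1 peak and in 5.28% of all peaks. TEAD (GGAATG) matched the TM4SF1 start peak at bases 74 to 79 and 183 to 188, and 21.6% of all peaks held it. In the TM4SF4 promoter, the TATA box (TATAAA) stood at bases 220 to 225, as in 11.5% of all 35116 RefSeq promoters, and the antioxidant response element (TGACNNNGC) at bases 14 to 22, as in 13.3%. The motif AGATAA of GATA factors was in 1 of the 6 member promoters, that of TM4SF20, against 10.3% of all promoters. The E-box CACGTG was in 0 of the 6, against 7.26%. These matches describe letters and not binding.

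TM4SF4, a gene known from liver and gut, was concentrated in RNA cluster 1, where 1370 of 1540 nuclei carried a UMI. Its level there was 469 CPM (459 to 480), against 10.0, 12.2, 17.8 and 12.9 CPM in clusters 0, 2, 3 and 4. Cluster 1 thus stood 26.3 times (23.3 to 29.8) above cluster 3, the next. In the 20% portion the same 5 levels were 13.6, 404, 14.4, 9.62 and 17.1 CPM, and cluster 1 was 23.7 times above the next. In the 80% portion the interval of cluster 4 (9.86 to 16.5) overlapped those of clusters 0, 2 and 3. Without called doublets the levels in clusters 1, 2 and 3 were 533, 12.3 and 11.2 CPM. The next cluster was then cluster 2, and the ratio to it became 43.5. A setting with at least 6 clusters gave 5.62, because it made a cluster of 129 nuclei, all 129 called doublets, with 86.6 CPM. With those doublets removed the same setting gave 42.4.

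TM4SF20, on another chromosome, was also highest in cluster 1. It reached 185 CPM (179 to 192) in cluster 1, against 5.79, 6.43, 9.42 and 6.85 CPM in clusters 0, 2, 3 and 4, a ratio to the next of 19.7 (16.6 to 23.4). Neighbours in the order of the 4 lower clusters could not be told apart, although the interval of cluster 3 (7.93 to 11.1) lay above those of clusters 0 and 2. Without called doublets cluster 3 no longer stood above them, at 5.66 CPM (4.41 to 7.17) against 5.86 and 6.44 CPM in clusters 0 and 2. In the 20% portion the level in cluster 1 was 216 CPM, at 17.4 times the next. Without doublets the ratio was 32.6, with at least 6 clusters 6.04, and with both changes 32.6.

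TM4SF5, the liver-associated member, was sparse. It had 192 of its 229 UMIs in cluster 1, at 11.4 CPM (9.85 to 13.1), and 15, 14, 5 and 3 UMIs in clusters 0, 2, 3 and 4, at 0.379, 0.731, 0.332 and 0.622 CPM. The ratio of cluster 1 to cluster 2 was 15.6 (9.07 to 29.1), and the intervals of the lower clusters overlapped. In group 3b none of 376 nuclei had a UMI, which allows a level of up to 0.480 CPM at 3 counts. In the 20% portion 21 of 28 UMIs fell in cluster 1, at 9.86 CPM and 9.74 times the next cluster, which had 2 UMIs.

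TM4SF1, the carcinoma antigen, was found nearly everywhere and differed in degree. Its levels in clusters 0 to 4 were 565, 1144, 621, 392 and 373 CPM, so cluster 1 was highest at 1.84 times (1.80 to 1.89) cluster 2. Clusters 3 and 4 could not be told apart, with a ratio of 1.05 (0.995 to 1.11). The order of clusters 1, 2 and 0 was the same in the 20% portion, at 1082, 569 and 537 CPM, while cluster 3 was lower there at 291 CPM (268 to 316).

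TM4SF18, the neighbour of TM4SF1, followed another order. It was highest in cluster 4, the cluster led by EGFR, at 158 CPM (147 to 169), then 64.6 in cluster 1, 30.3 in cluster 3, 10.4 in cluster 0 and 2.93 in cluster 2. The interval of every step lay above 1, and the step from cluster 4 to cluster 1 was 2.44 times (2.22 to 2.68). Groups 3a and 3b differed at 40.5 and 18.2 CPM. The 20% portion gave 147, 59.6, 32.4, 10.0 and 3.75 CPM in the same order, with a first step of 2.47.

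TM4SF19, the member known from osteoclasts, was highest in cluster 0 at 122 CPM (118 to 125). Cluster 2 followed at 61.2 CPM, and clusters 1, 3 and 4 had 26.9, 22.8 and 19.3 CPM, of which the last pair could not be told apart. The first step was 1.99 times (1.87 to 2.12), and 1.91 times in the 20% portion. Without doublets its levels in clusters 1, 3 and 4 were 16.8 (14.7 to 19.1), 18.1 (15.75 to 20.6) and 13.3 CPM. Cluster 1 then no longer stood above cluster 3. When the nuclei were clustered on ATAC instead, clusters 0 and 2 fell together and the lead over the next became 4.20 times. Its antisense gene TM4SF19-AS1 had the same lead, with 24.1 CPM in cluster 0 against 10.7 in cluster 2.

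**Figure D1:**
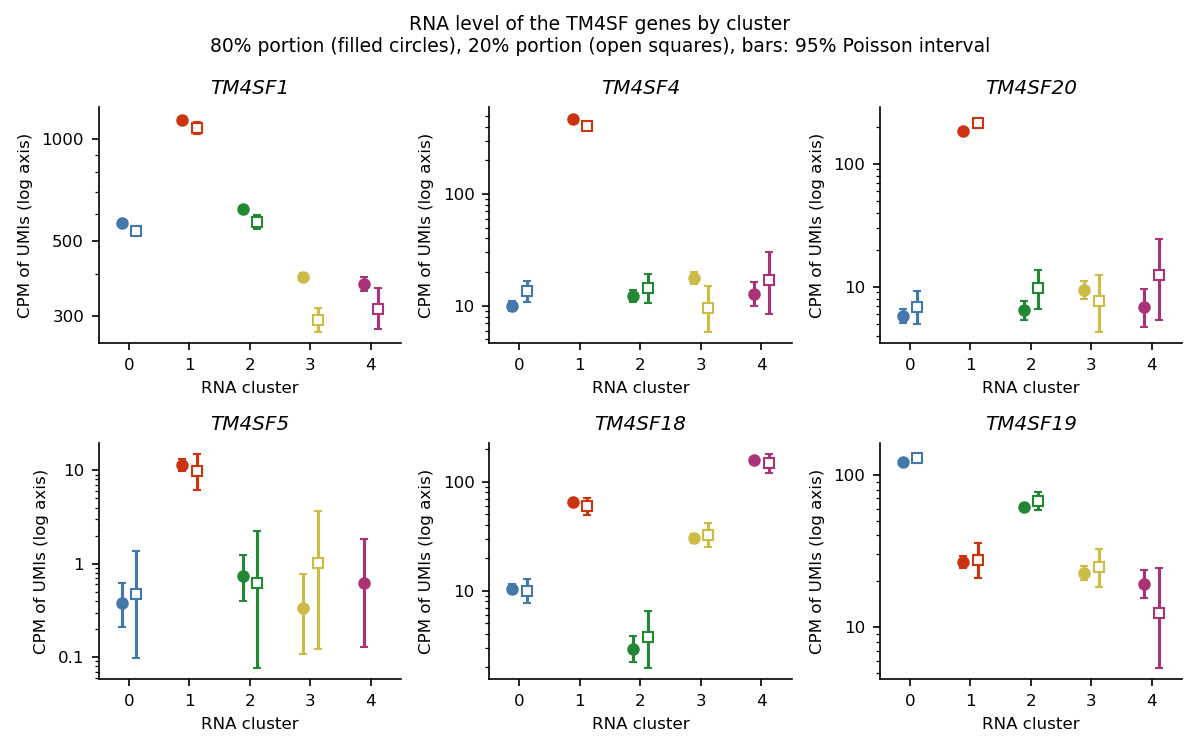
RNA level of each gene in CPM of UMIs (log axis) by RNA cluster in the 80% portion (filled circles) and the 20% portion (open squares), with exact 95% Poisson intervals, levels of 0 left out. TM4SF4, TM4SF20 and TM4SF5 are high in cluster 1, TM4SF18 is highest in cluster 4 at 158 CPM and TM4SF19 in cluster 0 at 122 CPM.

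Of the 6 genes, 3 had a highest cluster at least 4 times the next, which 6.46% of the 16913 genes with 100 or more UMIs had, and 4 were highest in cluster 1, as 18.4% were. The median ratio was 9.02 over the 6 and 1.27 over all these genes. The genes were chosen on this contrast, so nothing is read from the counts. All 6 kept their highest cluster in the 20% portion, whose nuclei were assigned by correlation to the 80% clusters. Removing the shared barcodes left each ratio within its interval in both portions.

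In cluster 1, TM4SF4 was detected in 89.0% of nuclei (87.3 to 90.5), TM4SF20 in 67.5% and TM4SF5 in 10.2%. Elsewhere these shares were 13.4 to 18.98%, 7.92 to 10.9% and 0.475 to 0.909%, although median depth was lower in cluster 1 than in the other clusters. With all nuclei thinned to 5000 UMIs, which left out 101 with fewer, TM4SF4 was detected in 79.2% of cluster 1 and 4.59 to 6.28% of the others. TM4SF20 then stood at 50.3% against 2.89 to 5.24%. TM4SF1 was detected in 93.0 to 99.4% of nuclei, and in 78.5 to 97.8% after thinning. TM4SF18 was detected in 68.8% of cluster 4 and 3.65% of cluster 2, and TM4SF19 in 77.6% of cluster 0 and 16.7% of cluster 4.

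No cluster was known beforehand to lack any of the genes, and UMIs from free RNA were not separated from expression. For comparison, ALDH1A1, an aldehyde dehydrogenase with its highest level in cluster 1, had 1.77 to 4.15% of its cluster 1 level in the others. For TM4SF4 this was 2.13 to 3.80%, for TM4SF20 3.13 to 5.09% and for TM4SF5 2.91 to 6.41%. The levels of the 3 genes outside cluster 1 are not read as expression here.

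**Figure D2:**
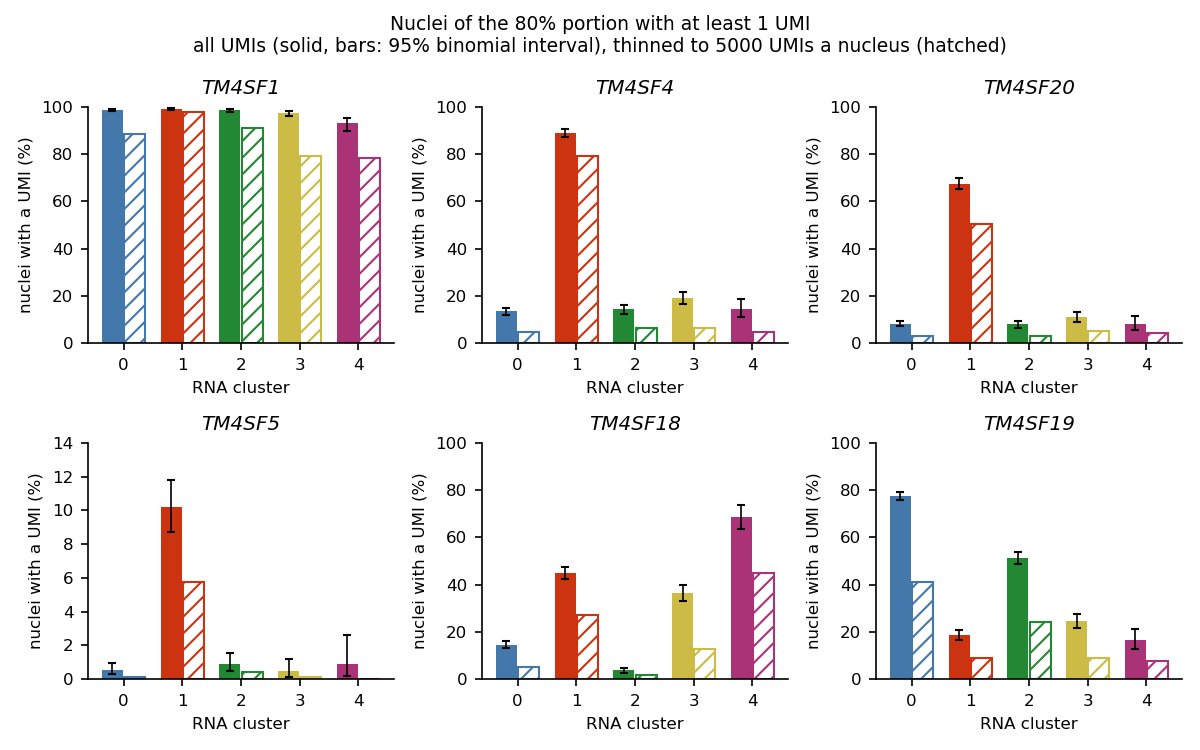
Percent of nuclei of the 80% portion with at least 1 UMI, by RNA cluster, for all UMIs (solid bars, exact 95% binomial intervals) and after thinning each nucleus to 5000 UMIs (hatched bars). The axis of TM4SF5 ends at 14%, those of the other genes at 100%, and TM4SF4 in cluster 1 stays at 79.2% after thinning.

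Within cluster 1 the levels were not uniform. At the default resolution of 0.8, it held 5 subclusters of at least 50 nuclei, with TM4SF4 at 178 to 540 CPM and TM4SF20 at 81.0 to 223 CPM. The lowest TM4SF4 levels, 178 and 243 CPM, belonged to subclusters of 100 and 50 nuclei in which 83.0% and 100% were called doublets. In the other 3 subclusters it stood at 483, 529 and 540 CPM, with 0.522 to 4.38% doublets. TM4SF1 ranged from 787 to 1529 CPM over the 5. After thinning, the variance of TM4SF4 over the nuclei of cluster 1 was 2.36 times its mean, that of TM4SF20 1.96 times and that of TM4SF1 2.39 times, where pure counting noise gives 1. TM4SF1 had the widest spread in cluster 4, at 3.53 times.

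TM4SF4 and TM4SF20 were found in the same nucleus of cluster 1 in 959 of 1540 cases, against 925 from the product of their shares. TM4SF20 was detected in 70.0% of nuclei with TM4SF4 and in 47.6% of those without, and after thinning to equal depth in 53.0% and 40.3%. The ratio of the observed number to the product was 1.04, and 1.05 after thinning. The counting interval of the first (0.995 to 1.08) took the product as fixed, though the product came from the same nuclei. That interval thus cannot show whether detection of these genes was linked. With TM4SF4 in 1370 of 1540 nuclei, the ratio also had little room above 1. TM4SF20 and TM4SF5 were together in 127 nuclei, against 106 from the product. Over all 6557 nuclei, which share 1 library and differ in depth, TM4SF4 and TM4SF20 had a Pearson's r of 0.61 on log-normalized values, TM4SF1 and TM4SF4 0.43, and TM4SF4 and TM4SF19 -0.26.

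**Figure D3:**
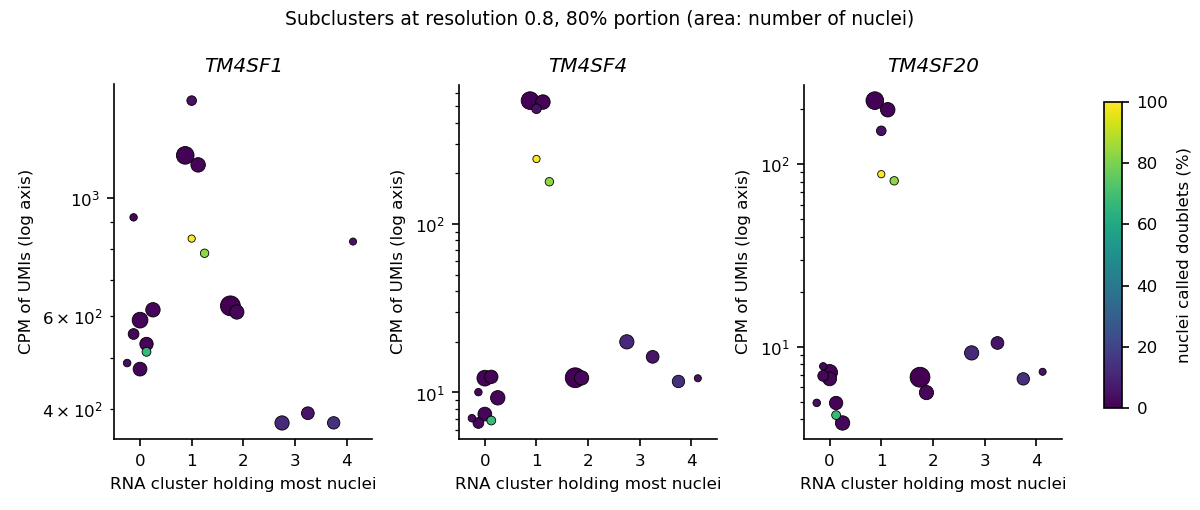
Level of TM4SF1, TM4SF4 and TM4SF20 in CPM of UMIs (log axis) in the subclusters of the 80% portion at resolution 0.8, placed by the RNA cluster that holds most of their nuclei, with area for the number of nuclei and colour for the percent called doublets. The subclusters of cluster 1 lowest in TM4SF4, at 178 and 243 CPM, are those with 83.0% and 100% doublets.

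The genes most like each member were taken as the 3 with the highest Pearson's r over the 6557 nuclei, among 10435 genes with at least 1000 UMIs. For TM4SF4 they were ALDH1A1 (r = 0.80), the cell adhesion gene CNTN1 (0.75) and the hair keratin KRT81 (0.75), and for TM4SF20 the same genes had 0.66, 0.62 and 0.62. For TM4SF1 they were the aldo-keto reductase AKR1B10 (0.47), ALDH1A1 (0.45) and KRT81 (0.44). For TM4SF18 they were MIR31HG and KRT18 with 0.38 each, and the transporter SLCO1B3 with 0.35. For TM4SF19 they were the long non-coding RNAs MIR100HG (0.44) and MEG3 (0.43), and the cadherin CDH11 (0.44). TM4SF5 had fewer than 1000 UMIs and was left out.

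Most genes next to the members had smaller contrasts than the members, which were chosen on theirs. Of 115 genes within 500 kb of a member, 62 had at least 100 UMIs. Their median ratio of highest to next cluster was 1.34, against 1.27 over all genes with at least 100 UMIs. By member, it was 2.11 over the 9 such neighbours of TM4SF20 and from 1.19 to 1.36 beside the other members. Of these 9, 5 were highest in cluster 1, as 18.4% of all genes were. Of the 62, 3 had a ratio of 4 or above, against 6.46% of all 16913 such genes. These were COL4A3, ARRB2 and SLC52A1, all more than 50 kb away. The first and the last of them were named after their values were seen. TM4SF1-AS1, which starts 86 bp from TM4SF1 on the other strand, was highest in cluster 1 at 12.5 CPM against 3.16 to 4.98 CPM elsewhere. Beside TM4SF5, the arrestin gene ARRB2 was also highest in cluster 1, at 37.6 CPM against 8.55 in the next. Beside TM4SF20, AGFG1 had 274 CPM in cluster 1 against 126 in the next, and the mitochondrial fission factor MFF 132 against 96.0. Beside TM4SF19, PCYT1A was highest in cluster 0 at 108 CPM against 57.9, whereas UBXN7 had 94.1 in cluster 0 and 91.6 in cluster 2. The other genes within 100 kb with at least 100 UMIs, which were AC093001.1, TCTEX1D2, AC097662.1, PELP1, AC091153.2, AC091153.3, MED11, CXCL16, VMO1, PSMB6, PLD2 and MINK1, had ratios from 1.01 to 2.11.

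Chromatin was examined next at the 4 members on chromosome 3, as CPM of the ATAC counts of a cluster. Of the nonzero ATAC values 90.1% were even, so counts come in pairs and their intervals are too narrow. Of the 58 peaks, 45 had at least 100 counts. The window reached in to a peak 41738 bp from the TM4SF18 start (chr3:149290909-149291743) with 88 counts, and the nearest peak left out was 50106 bp from the TM4SF19 start (chr3:196287361-196288281) with 2902 counts. Of the 45, 11 had a highest cluster at least 2 times the next and 2 at least 4 times, which 22.0% and 6.57% of all 100354 such peaks had. The shares of the windows were thus near those of all peaks, and the median ratio was 1.30 over the 45 and 1.36 over all.

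The peak at TM4SF4 (chr3:149473406-149474291), whose middle is printed above with an AP-1 match, lies in intergenic sequence 405 bp upstream of the start. It had 18.2, 42.4, 7.04, 8.93 and 7.70 CPM in clusters 0 to 4, so cluster 1 was highest, at 2.33 times (2.06 to 2.63) cluster 0. In the 20% portion cluster 1 was highest again at 43.7 CPM, and the next was cluster 4, giving 1.71 times. An intronic peak of TM4SF4 (chr3:149480005-149481133) also led in cluster 1, at 14.7 CPM against 10.1 in cluster 3, but not in the 20% portion, where cluster 2 had 11.5 CPM and cluster 1 9.90 CPM.

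The peak over the start of TM4SF1 (chr3:149377276-149378191), which also covers the start of TM4SF1-AS1, was open in all clusters. It had 38.0, 44.3, 28.1, 38.2 and 22.3 CPM in clusters 0 to 4. The lead of cluster 1 over cluster 3, 1.16 times (1.02 to 1.32), became 0.998 when counts were scaled to peaks at gene starts, and 0.836 in the 20% portion, where cluster 3 was higher. Further upstream, 23539 bp from the start, an intergenic peak (chr3:149401189-149402343) had 17.8 CPM in cluster 1 against 5.39 in cluster 4, a ratio of 3.30 (2.11 to 5.44), and 1.65 in the 20% portion. An intronic peak of TM4SF1 (chr3:149372380-149373184) had 5.48 CPM in cluster 1 and at most 1.92 elsewhere.

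Within the antisense gene TM4SF1-AS1, the exonic peak printed above (chr3:149384721-149385572) had 21.7 CPM in cluster 2 and at most 4.85 elsewhere, a ratio of 4.46 (3.26 to 6.21). It led in cluster 2 in the 20% portion too, at 5.90 times the next. With at least 6 RNA clusters the ratio was 2.78, with group 3b as the next at 7.78 CPM, while group 3a had 2.84. The ratio was 0.891 with 5 ATAC clusters, in which the nuclei of clusters 0 and 2 were together. TM4SF1-AS1 RNA itself was not highest in cluster 2, at 4.28 CPM.

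The peak at TM4SF18 (chr3:149333932-149334837) had 323 counts, and in the 80% portion its order over the clusters differed from that of the RNA. It had 7.47, 4.54, 1.28, 3.01 and 4.11 CPM in clusters 0 to 4, highest in cluster 0, while RNA was highest in cluster 4. Cluster 4 rested on 16 counts, with an interval of 2.35 to 6.67 CPM that overlapped that of cluster 0 (6.49 to 8.56). The ratio to the next was 1.64 (1.22 to 2.24) in the 80% portion, but 0.893 in the 20% portion, where cluster 4 was higher on 69 counts in all. Cluster 2 was lowest in both RNA and this peak. An intronic peak of TM4SF18-AS1 (chr3:149314881-149315783) had 22.7 CPM in cluster 0 against 8.72 in the next.

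The RNA and the start peak of TM4SF19 were both highest in cluster 0. The start peak (chr3:196338135-196339032) had 43.0, 21.5, 37.1, 26.4 and 18.0 CPM in clusters 0 to 4, with clusters 0 and 2 on top as in the RNA, and a ratio of 1.16 (1.03 to 1.31) between them. The peaks of its window summed to 166 CPM in cluster 0, 145 in cluster 2, 101 in cluster 3, 77.5 in cluster 4 and 68.7 in cluster 1. An intronic peak (chr3:196331799-196332634) had 15.9 CPM in cluster 0 against 4.11 in cluster 4, a ratio of 3.88 (2.36 to 6.85). It was 5.22 in the 20% portion and 1.26 with at least 6 RNA clusters, but 3.74 once the doublets were removed from those.

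**Figure D4:**
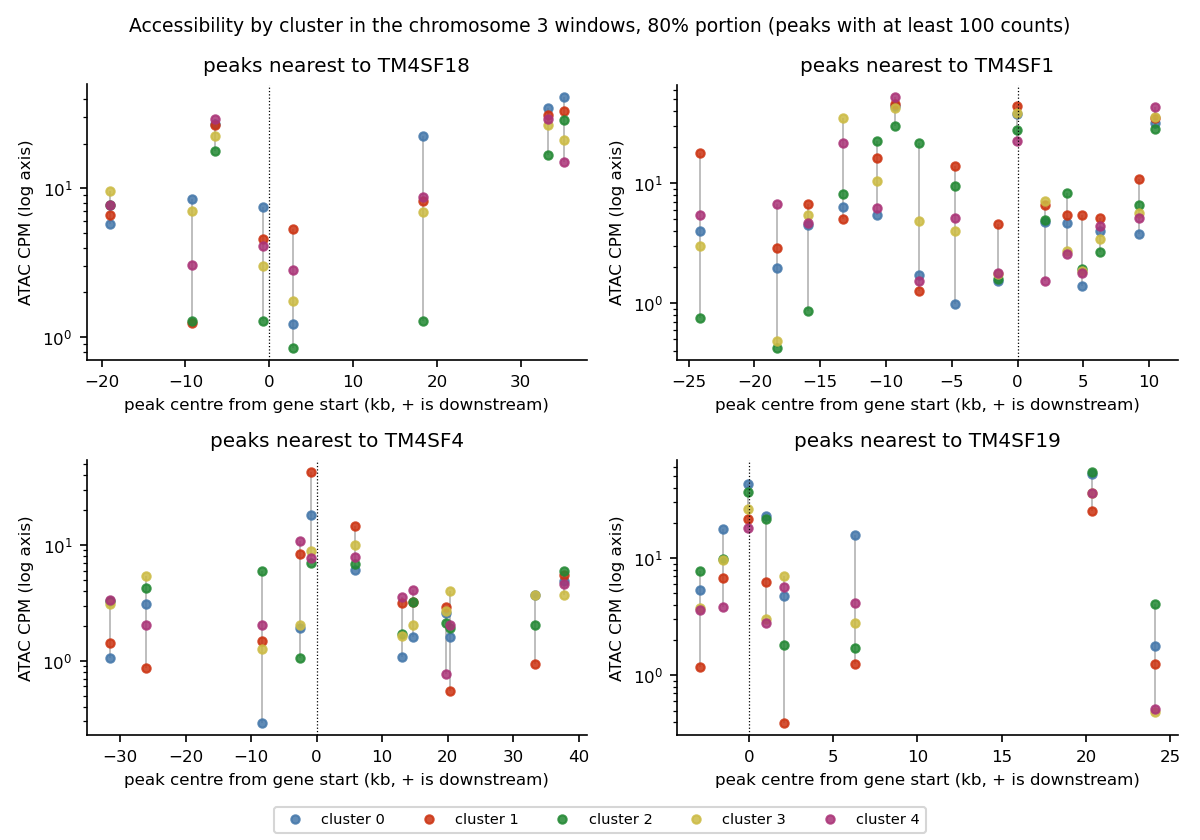
ATAC CPM (log axis) of each peak with at least 100 counts against the distance of its centre from the gene start in kb, by the nearest member and RNA cluster (colours), 80% portion, values of 0 and 1 peak that is not reported left out. The TM4SF4 start peak stands at 42.4 CPM in cluster 1, against 18.2 CPM in cluster 0, the next.

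Summed over its window, TM4SF4 had 89.7 CPM in cluster 1 and 49.9 to 58.8 in the others. These sums include the start peak, which alone had 42.4 CPM in cluster 1 and 7.04 to 18.2 in the others. They thus do not show that the remaining peaks of the window led in cluster 1. The windows of TM4SF1 and TM4SF18, which share peaks, were also highest in cluster 1, at 274 and 252 CPM, with 211 and 175 in the lowest cluster. For TM4SF18 the next, cluster 0, was close at 243 CPM (237 to 249), an interval that overlapped that of cluster 1 (243 to 261). For TM4SF1 the next was cluster 3 at 252.5 CPM. Of the 58 peaks, 34 were overlapped by a peak of the 20% portion, 33 of these with at least 100 counts, and 19 of the 33 had the same highest cluster there. Among the 6 of them with a ratio of at least 2, 5 had the same. The share over all overlapped peaks is not given here, so nothing about these windows is read from the counts.

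**Figure D5:**
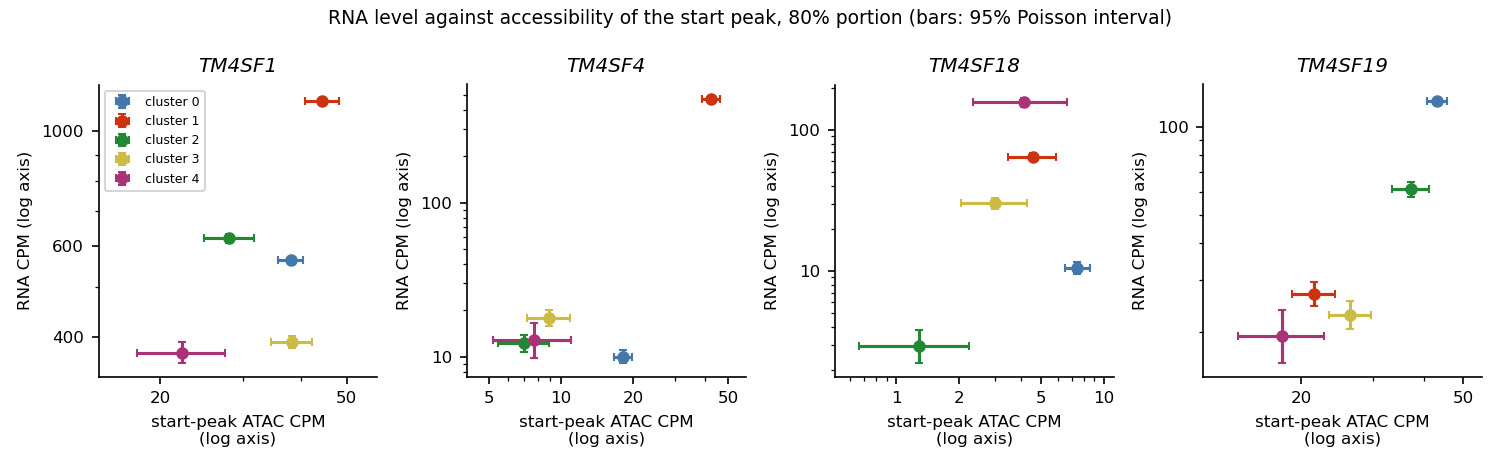
RNA level against ATAC CPM of the start peak (both log axes), 1 point for each RNA cluster of the 80% portion, with exact 95% Poisson intervals. Cluster 1 is highest on both axes for TM4SF4, at 469 and 42.4 CPM, and cluster 0 for TM4SF19. TM4SF18 RNA is highest in cluster 4 and its peak in cluster 0, but the peak intervals of clusters 0 and 4 overlap.

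Within a cluster, RNA and peak were compared over nuclei with and without a count in the start peak. The intervals cover counting error only. Over the nuclei of cluster 1, the variance after thinning was 2.36 times the mean for TM4SF4 and 2.39 times for TM4SF1. The intervals of these genes are thus too narrow there. In cluster 1, TM4SF4 RNA stood at 512 CPM in the 253 nuclei with a count and 460 CPM in the 1287 without, a ratio of 1.11 (1.05 to 1.18). TM4SF19 in cluster 0 had 135 and 118 CPM, a ratio of 1.14 (1.07 to 1.22). TM4SF1 in cluster 1 had 1097 and 1156 CPM, a ratio of 0.949 (0.916 to 0.984), but 460 and 373 CPM in cluster 3, a ratio of 1.23. TM4SF18 in cluster 0 had 5.70 and 10.65 CPM, a ratio of 0.535 (0.255 to 0.995), with 10 UMIs in the nuclei with a count. Its ratios in clusters 1, 3 and 4 were 0.908, 1.025 and 1.40, with intervals that included 1. Nuclei with a count were deeper, with median UMIs of 10031 and 9206 in the TM4SF4 comparison. For TM4SF1 in cluster 3, median UMIs were 18308 and 15533, and median ATAC counts 14931 and 9930. The part of depth in these ratios was not tested.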

How the data were processed

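Nuclei of 5 mixed cell lines gave RNA and ATAC libraries, 1 of each kind for an 80% and a 20% portion. The authors deposited whole-number counts without normalization, as UMIs per gene and ATAC counts per peak, for barcodes called as cells. The submitters' processing notes name Cell Ranger ARC 2.0.0 and GRCh38. For the gene annotation and the use of strand, the sources used here give nothing. Peaks had been called separately for each portion. No column of values was without a sample, and the combined matrix and the long-read counts were not used here.

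UMIs were log-normalized, the 2000 most variable genes without the 6 members were reduced to 30 components, and a graph of 20 neighbours was clustered by the Louvain method of Seurat 5.3.0 in R 4.3.3. The resolution, 0.03, was the lowest with at least 5 clusters. Levels are pooled counts per 1000000 (CPM). Nuclei of the 20% portion were assigned to the 80% cluster with the best-correlated profile, and 97.5% of the 80% nuclei went back to their cluster this way. Scrublet in scanpy 1.11.5 (expected rate 0.06) called doublets, which were kept. Intervals came from SciPy 1.17.1, and gene positions from GENCODE v44. RefSeq promoters were found for all 6 members. The hg38 genome was used for sequence, and 53 peaks on contigs that its file lacks were left out of the motif shares.

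The members, gene lists and rules were chosen with earlier results of these data known. The genes named are the 6 members, the 3 most correlated genes of each with at least 1000 UMIs, genes within 100 kb, and the 3 tetraspanins with the highest and the 3 with the lowest ratio. The gene with the largest excess in each cluster, the cell type markers, the peaks at starts and the 3 peaks with the largest ratios, of which 1 is not reported here, were named too, and the remaining peaks were picked once their values were known. The ratios were tested on simulated data. Alternatives covered filters, doublets, clustering, scaling, thinning, windows and shared barcodes.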

Additional observations from a re-analysis of the deposited data

How the results depend on the processing

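A ratio was called moved when it left the 95% counting interval of its main value, and a number of peaks when it changed by more than 1.5 times. Of 203 values under alternatives, 162 stayed, 37 moved and 4 reversed. The settings with at least 6 clusters were chosen after seeing the data. The ratio of the highest to the next cluster of TM4SF1, 1.84, became 1.97 without doublets, 1.91 with members among the variable genes, 1.92 with seed 1, 2.004 with ATAC clusters, 1.93 as a mean over nuclei and 1.94 after thinning. With at least 6 clusters it was 1.76 on RNA, 1.97 on RNA without doublets, 1.89 on ATAC and 1.90 on ATAC after the depth filter. That of TM4SF4, 26.3, became 43.5 without doublets, 5.62 with at least 6 RNA clusters, 42.4 with both and 30.6 after thinning. That of TM4SF20, 19.7, became 32.6, 6.04 and 32.6 under the first 3 of these. That of TM4SF18, 2.44, became 2.17 at resolution 0.8, 2.16 with ATAC clusters, 2.16 with at least 6 of them, 2.16 with the depth filter on those and 2.19 as a mean over nuclei. That of TM4SF19, 1.99, became 4.20 with ATAC clusters and 1.41 with at least 6 RNA clusters. No ratio of a member's RNA reversed. The start peak of TM4SF1 reversed to 0.998 under scaling to gene starts and 0.836 in the 20% peaks, that of TM4SF18 to 0.893 in the 20% peaks, and the TM4SF1-AS1 peak to 0.891 with ATAC clusters. The share of genes with a ratio of at least 4 was 16.7% with no minimum of UMIs. Windows of 25 and 100 kb gave 11 of 39 and 16 of 70 peaks with a ratio of at least 2. Except where stated, the cause was not tested. No paired analysis was possible because there was 1 library per portion. TM4SF5 is limited by its 229 UMIs, and single peaks by totals of as few as 100 counts.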

Other observations

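Tetraspanins, which resemble the TM4SF proteins in shape but form another family, were counted in the same RNA clusters. Of 33 listed genes, 25 had at least 100 UMIs, and 4 had a highest cluster at least 4 times the next: UPK1B, TSPAN31, TSPAN18 and TSPAN8. Of all 16913 genes with at least 100 UMIs, 6.46% had such a ratio. The median ratio of the 25 was 1.44, against 1.27 over all genes. UPK1B, a uroplakin of the bladder lining, had 39.2 CPM in cluster 1 and at most 1.79 CPM elsewhere, the cluster in which 4 TM4SF genes were highest, and was named after its values were seen. Among tetraspanins with at least 1000 UMIs, TSPAN31 had 234 CPM in cluster 4 and at most 26.3 elsewhere. TSPAN8 had 85.7 CPM in cluster 0 and at most 20.1 elsewhere, and TSPAN7 73.9 against 21.7. The lowest ratios of highest to next cluster were those of CD81, CD151 and TSPAN17, at 1.04, 1.06 and 1.07. Over all clusters, CD81 still ranged from 250 CPM in cluster 4 to 419 CPM in cluster 0, and CD151 from 120 to 228 CPM. No difference was tested, since each portion was 1 library.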
